A study of Mus musculus with 24 samples.

Results

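The villi of mouse small intestines lacking Rb, E2f1, E2f2 and E2f3 (QKO) were compared with the crypts of the same genotype. The samples were chosen by their titles, which gave 3 QKO villus arrays and 3 QKO crypt arrays, 6 of the 24 arrays in the series. The villus-minus-crypt difference of a gene on the log2 scale is called its gradient, and 1 unit of it is a 2-fold change. The question was how far the gradient of QKO tissue stood between that of Rb-null tissue and that of wild-type tissue.

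The series measured total RNA of villi and crypts on Affymetrix mouse arrays, with 3 arrays for each of 8 groups. The genotypes were QKO (E2f1-/-;E2f2-/-;E2f3-/-;Rb-/-), TKO (E2f1-/-;E2f2-/-;E2f3-/-), Rb (Rb-/-) and wild type (WT). All mice were 2 months old and of a C57BL/6;FVB background. In every group, the WT mice included, the tissue was taken 7 days after an intraperitoneal injection of beta-naphthoflavone, an agonist of the aryl hydrocarbon receptor. The labels name no Cre driver and do not say in which cells each allele was deleted. Whether each array stands for its own mouse is also not stated, so the p-values measure only the spread between these samples, which may be technical.

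Crypts hold the stem cells and dividing progenitors of the intestinal epithelium, and villi carry the cells that have stopped dividing and matured. The retinoblastoma protein Rb binds E2F transcription factors and holds down the genes that start DNA replication. E2f1, E2f2 and E2f3 are the E2F members classed as activators of those genes, and mitotic genes are controlled in part through a separate promoter element, the cell cycle genes homology region (CHR).

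Several checks of the arrays touch the results. Rb1 itself, read by its brighter probe set, was at 8.28, 8.57 and 8.77 in QKO villi and at 8.13, 8.18 and 8.23 in QKO crypts, against 10.70 to 10.93 in WT villi. WT crypts 3 read 8.46 and Rb crypts 2 read 10.25, each against its label, so comparisons with WT or Rb are also given without these 2 discordant arrays where they matter. The positions of the E2f1, E2f2 and E2f3 probe sets relative to the deleted parts are not given, so those probe sets check nothing. Poly-A control probe sets averaged 9.64 to 10.06 on QKO villus arrays and 8.28 to 8.90 on QKO crypt arrays, and 5.01 to 6.25 on all Rb and WT arrays. The level of these controls and the compartment thus cannot be told apart within QKO, and neither can their level and the genotype between QKO and Rb or WT. TKO arrays, at 8.75 to 9.78, lay nearer to QKO. Hybridization control probe sets averaged 11.04 to 11.26 in QKO villi and 10.29 to 10.80 in QKO crypts. On WT and Rb arrays the order was the reverse, at 9.94 to 10.20 in villi and 10.51 to 10.86 in crypts. The actin 3' probe set exceeded the 5' one by 1.11 to 1.20 in QKO crypts and 0.75 to 0.96 in WT crypts. In villi the QKO and WT values overlapped (1.03 to 1.31 and 0.80 to 1.36). The part of these differences in the gradients was not tested. All 6 QKO arrays were male by Eif2s3y (9.46 to 10.06), and all WT arrays were female (3.02 to 3.46). Array medians were 5.07, 5.05 and 5.26 in QKO villi and 4.97, 5.17 and 4.98 in QKO crypts.

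The compartment labels were checked against markers. Of 16 genes of the brush border, the microvillus surface of enterocytes, 13 were called higher in QKO villi and 0 lower. Of 25 stem cell and crypt base genes, 19 were called lower in QKO villi and 1 higher, and of 10 Paneth cell genes 7 were called lower. A gene is called here at an adjusted p under 0.05 across all 18193 genes. Over those genes 6777 (37.3%) were called, 2806 higher in QKO villi (15.4%) and 3971 lower (21.8%), and 1760 of them differed over 2-fold. The 3 QKO villus arrays all lay above the 3 QKO crypt arrays in 15.0% of genes and all below them in 21.1%. The share of QKO calls that were higher in villi, 41.4%, depended on single pairs and on the scaling: it was 53.3% without the second QKO pair (3231 higher, 2830 lower), 27.4% without the third (1479 higher, 3926 lower) and 50.8% with each array centred on its median. The same test called 3790 genes in TKO (20.8%; 8.93% higher and 11.9% lower in villi), 4022 in Rb (22.1%; 10.1% and 12%) and 7385 in WT (40.6%; 20.7% and 19.9%).

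Genes of DNA replication were lower in QKO villi than in QKO crypts almost throughout. Of 58 measured genes for the G1/S transition and DNA replication, 54 fell and 0 rose, with a median gradient of -1.07 beside 0.01 for all genes. The corresponding medians were -0.75 in TKO, -0.09 in Rb and -1.98 in WT. The QKO median was thus 54.1% of the WT median, against 38.1% in TKO and 4.51% in Rb. Without the 2 discordant arrays the Rb median was -0.21 and the WT median -1.79. The 3 QKO pairs gave -0.91, -1.18 and -0.92. In 53 of the 58 genes the QKO gradient lay between the Rb and the WT gradient.

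The promoters of 4 cell cycle genes are shown to give the sequence context of the genes whose gradients are compared next. They are the 2 called G1/S genes and the 2 called G2/M genes with the smallest p among those whose window holds the motif, so that the presence of a match is not a finding. Each window has 300 bases around the transcription start, mostly upstream of it, from RefSeq on build GRCm38.p6. Promoters were found for 14452 of the 18193 genes. Capitals mark E2F motifs (TTTCGCGC, TTTGGCGC, TTTCCCGC or TTTGCCGC) in Mcm5 and Mcm7 and the CHR motif (TTTGAA) in Cdca8 and Kif23, searched on both strands as exact matches. Mcm5 is on the plus strand at chr8:75109259-75109558, and its 2 matches overlap, the first at -153 from the start. Mcm7 is on the minus strand at chr5:138171834-138172133, with 2 separate matches, the first at -165. Cdca8 is on the minus strand at chr4:124936868-124937167 and its match is at 14 after the start. Kif23 is on the minus strand at chr9:61946750-61947049 and its match is at 3 after the start.
Mcm5: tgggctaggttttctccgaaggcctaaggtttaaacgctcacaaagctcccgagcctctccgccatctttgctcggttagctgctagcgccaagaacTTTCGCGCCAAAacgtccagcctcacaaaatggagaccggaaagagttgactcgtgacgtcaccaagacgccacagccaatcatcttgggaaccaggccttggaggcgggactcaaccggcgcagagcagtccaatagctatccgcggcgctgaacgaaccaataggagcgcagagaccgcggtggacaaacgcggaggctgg
Mcm7: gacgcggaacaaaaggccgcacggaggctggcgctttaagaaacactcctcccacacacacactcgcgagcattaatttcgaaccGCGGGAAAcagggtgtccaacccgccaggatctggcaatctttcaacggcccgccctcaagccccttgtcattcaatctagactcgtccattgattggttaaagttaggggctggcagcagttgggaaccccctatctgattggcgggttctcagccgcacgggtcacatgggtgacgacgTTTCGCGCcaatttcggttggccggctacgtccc
Cdca8: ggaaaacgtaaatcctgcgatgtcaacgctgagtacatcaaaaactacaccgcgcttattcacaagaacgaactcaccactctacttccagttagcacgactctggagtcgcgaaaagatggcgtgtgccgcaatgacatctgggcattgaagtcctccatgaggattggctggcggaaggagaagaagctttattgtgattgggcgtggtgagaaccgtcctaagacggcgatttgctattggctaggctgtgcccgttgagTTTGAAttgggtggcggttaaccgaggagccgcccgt
Kif23: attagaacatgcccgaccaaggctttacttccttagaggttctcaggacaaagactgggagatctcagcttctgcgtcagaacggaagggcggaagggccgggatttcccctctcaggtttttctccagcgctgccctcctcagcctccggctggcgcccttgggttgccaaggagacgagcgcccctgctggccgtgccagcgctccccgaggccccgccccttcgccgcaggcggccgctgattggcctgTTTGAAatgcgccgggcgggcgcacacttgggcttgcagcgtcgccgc

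An E2F motif was present in 19 of the 46 G1/S genes with a promoter (41.3%), in 7 of 59 G2/M genes (11.9%) and in 550 of the 14452 genes (3.81%). The CHR motif was present in 39 of 59 G2/M genes (66.1%), in 9 of 46 G1/S genes (19.6%) and in 2263 of the 14452 genes (15.7%). A match is a description of the letters and not of bound protein.

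Mcm5, a subunit of the helicase that unwinds DNA for replication, read 10.01, 9.94 and 9.89 in QKO villi and 11.37, 11.64 and 11.47 in QKO crypts. Every villus array was below every crypt array, with a gradient of -1.55 ± 0.14 (SE, 3 pairs; adjusted p = 1.1e-06). Its gradient was -1.03 in TKO, -0.21 in Rb (adjusted p = 0.34) and -2.86 in WT. The difference in the Mcm5 gradient was -1.34 for QKO minus Rb and 1.31 for QKO minus WT, and both passed the test. Mcm7, another subunit of that helicase, read 11.37, 11.16 and 11 in QKO villi and 12.34, 12.56 and 12.37 in QKO crypts, a gradient of -1.24 ± 0.12 beside -2.59 in WT. Gins2, part of the same replication machine, read 7.68, 7.57 and 7.61 in QKO villi and 9.15, 9.62 and 9.14 in QKO crypts. Its QKO gradient of -1.69 ± 0.14 was close to the WT value of -1.73, with a difference of 0.05 ± 0.20 (adjusted p = 0.92).

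Across the G1/S list the steepest QKO gradient was that of Dscc1, a factor of sister chromatid cohesion, at -1.80 ± 0.19. In WT the steepest was that of Uhrf1, which guides DNA methylation to new strands, at -3.17. Cdc6, which licenses replication origins, read 6.73, 7.15 and 6.81 in QKO villi and 8.44, 8.65 and 8.20 in QKO crypts. Its gradient was -1.53 ± 0.22 in QKO beside 0.37 in Rb and -2.23 in WT. The discordant Rb crypts 2 array read 7.51 for Cdc6, against 8.25 and 8.22 on the other Rb crypt arrays. WT crypts 3 read 8.22, against 7.68 and 7.64 on the other WT crypt arrays. The 4 members that were not called were Orc1 (0.15), Tyms (-0.50), Ccne1 (-0.31) and Ccne2 (0.18). Ccne1 and Ccne2 encode the cyclin E proteins.

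The differences between gradients were tested in the same fit. QKO and WT gradients differed in 1706 of 18193 genes (9.38%; 806 with the QKO value above the WT value and 900 below), QKO and Rb gradients in 2002 genes (11%; 808 above, 1194 below), and QKO and TKO gradients in 65 genes (0.357%; 50 above, 15 below). The direction of these calls also rested on single pairs. Against WT, 1027 were above and 498 below without the second QKO pair, and 495 above and 1127 below without the third. Against Rb, 1248 were above and 756 below without the second pair, and 388 above and 1059 below without the third. QKO and TKO gradients differed in 2196 genes at an unadjusted p under 0.05. The QKO arrays are shared by the 3 comparisons. When villi and crypts were not paired, the difference from WT was called in 990 genes and that from TKO in 11. Of the 58 G1/S genes, 29 had a QKO gradient above that of WT and 0 below (background 4.43% and 4.95%), and 41 had a QKO gradient below that of Rb and 0 above (background 6.56% and 4.44%). None of the 58 differed between QKO and TKO by this test, and the median difference was -0.37. Without the 2 discordant arrays the counts were 27 and 41. With the first QKO pair left out, 19 of the 58 differed from WT.

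The level on each array shows where the gradients differ. The mean of the 58 G1/S genes was 8.36, 8.29 and 8.36 in QKO villi and 9.27, 9.51 and 9.27 in QKO crypts. The same mean was 8.61, 8.67 and 8.26 in TKO villi, 9.19, 9.14 and 9.21 in Rb villi and 7.34, 7.26 and 7.23 in WT villi, and crypt arrays of all genotypes lay between 8.94 and 9.51. QKO villi thus stood below every Rb villus array and above every WT villus array, while the crypt arrays of the genotypes overlapped. The level of the poly-A controls differed between the same genotypes, and its part in this order was not tested. The plot of the crypt gene lists shows the same arrays.

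**Figure D1:**
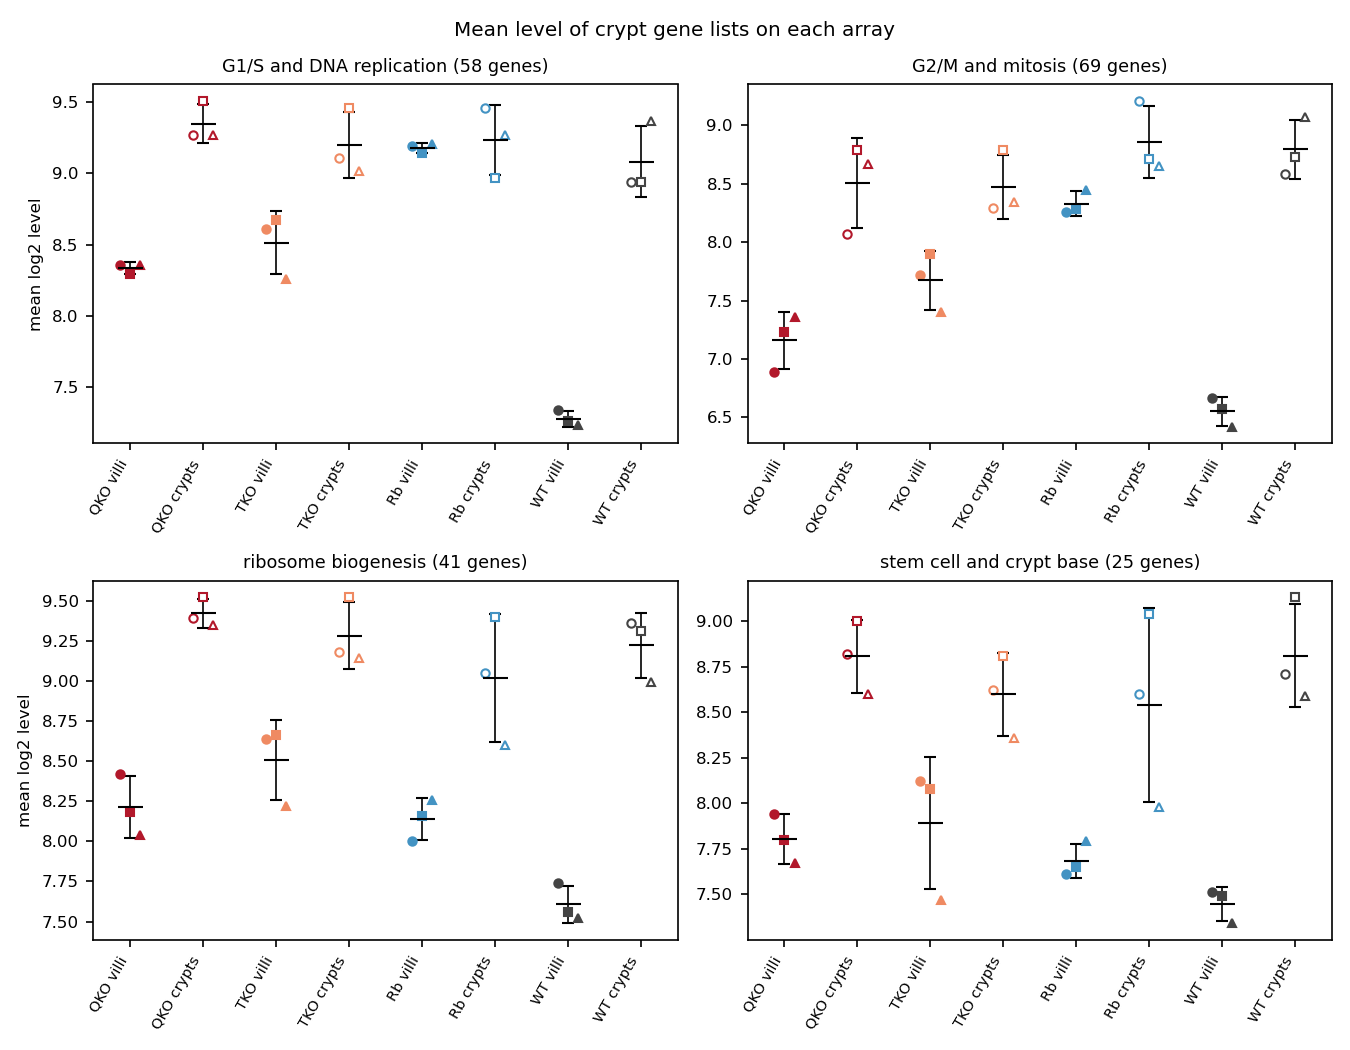
Mean log2 level of 4 gene lists on each of the 24 arrays, by group from QKO villi to WT crypts. Filled points are villi, open points are crypts, circles, squares and triangles are replicates 1, 2 and 3, and bars are the mean ± SD of 3 arrays. For the 58 G1/S genes the QKO villus arrays sit between 8.29 and 8.36, all below the QKO crypt arrays (9.27 to 9.51).

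Mitotic genes fell in the same way. Of 69 genes of the G2/M transition and mitosis, 67 were lower in QKO villi and 1 was higher, with a median gradient of -1.44, beside -0.87 in TKO, -0.50 in Rb and -2.41 in WT. The QKO median was 59.9% of the WT median, TKO reached 36.0% and Rb 20.6%. Without the 2 discordant arrays the Rb median was -0.58 and the WT median -2.29. Mean levels were 6.89, 7.23 and 7.36 in QKO villi and 8.07, 8.79 and 8.67 in QKO crypts. The 2 compartments did not overlap.

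Incenp, a component of the complex that corrects chromosome attachment, read 8.69, 9.02 and 9.07 in QKO villi and 10.10, 10.67 and 10.63 in QKO crypts, with a gradient of -1.54 ± 0.12 (adjusted p = 3.9e-07). Cdca8, of the same complex, read 8.41, 8.84 and 8.70 in QKO villi and 9.87, 10.60 and 10.36 in QKO crypts, a gradient of -1.63 ± 0.15. All villus arrays were below all crypt arrays for both genes. Kif23, a motor of the dividing midzone, had a gradient of -1.54 ± 0.15 in QKO beside -1.02 in Rb and -2.56 in WT. The proliferation marker Mki67 read 7.64, 8.35 and 8.20 in QKO villi and 8.77, 9.79 and 10 in QKO crypts. Its QKO crypt arrays lay below all Rb crypt arrays (11.20 to 11.70) and all WT crypt arrays (10.94 to 11.75), and its gradient was -1.45 ± 0.18 in QKO, -1.06 in TKO, -0.32 in Rb and -3.05 in WT. Cdk1, the kinase that starts mitosis, read 8.58, 8.77 and 8.68 in QKO villi and 9.92, 10.47 and 10.44 in QKO crypts, with a gradient of -1.60 ± 0.17.

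Cenpi, a centromere protein, had the steepest QKO gradient of the mitotic list (-2.02 ± 0.23). The 1 member that rose was the kinesin gene Kif15 (0.44 ± 0.15, adjusted p = 0.03), which rose by 0.46 in WT villi too. Foxm1, a transcription factor of mitotic genes, was not called (-0.13). Of the 69 genes 39 had a QKO gradient above that of WT and 0 below, and 36 had a QKO gradient below that of Rb and 0 above. Without the pairing of villi with crypts these counts were 19 and 18. Without the first QKO pair 23 differed from WT, and without the second 17 differed from Rb. None differed from TKO by this test, with a median difference of -0.58.

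The E2f genes and their partners showed a smaller set of changes, 5 falls and 0 rises among 13 genes. E2f8, an atypical E2F that represses transcription, read 7.81, 8.17 and 7.26 in QKO villi and 8.69, 9.38 and 8.76 in QKO crypts, a gradient of -1.20 ± 0.27 beside -2.86 in WT. Its difference from WT passed the test (1.66 ± 0.38, adjusted p = 0.011). E2f7, the other atypical member, fell by 0.75 in QKO and by 2.01 in WT, and Tfdp1, a DNA-binding partner of E2Fs, fell by 0.91 in QKO and 1.52 in WT. The E2f7 call was lost without the second QKO pair (-0.43). E2f6 and E2f2 were the other 2 called genes, and the E2f2 signal, at 7.12, 7.45 and 7.25 in QKO villi and 8.42, 8.52 and 8.42 in QKO crypts, came from a probe set whose place relative to the deletion is not given. E2f1, E2f3, E2f4, E2f5, Tfdp2, Rb1, Rbl1 and Rbl2 were not called, with gradients between -0.45 and 0.36.

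Among 12 D cyclins, G1 kinases and inhibitors, 3 fell and 1 rose, beside 21.8% and 15.4% of all genes. The median QKO gradient of the 12 was -0.06 beside 0.01 for all genes, so the list as a whole showed little gradient. Ccnd1, cyclin D1, read 9.20, 9.01 and 8.80 in QKO villi and 10.45, 10.59 and 10.53 in QKO crypts (gradient -1.52 ± 0.36). Its kinase partners Cdk4 and Cdk6 fell by 1.32 and 1.31. Cdkn1a, the inhibitor p21, rose by 0.94 ± 0.29, a call that was lost without the second or the third QKO pair (0.97 and 0.61). Cdkn2c, the inhibitor p18, had no called gradient in QKO (0.05 ± 0.29), and its level was 5.89 to 6.18 in QKO villi and 5.90 to 6.04 in QKO crypts. It was 5.92 to 6.30 on the TKO arrays, 9.13 to 10.65 on the Rb arrays and 7.61 to 10.28 on the WT arrays, where the gradient was -1.78. The QKO and TKO levels of Cdkn2c thus did not overlap those of Rb and WT in either compartment. The poly-A controls also read higher on the QKO and TKO arrays than on the Rb and WT arrays, and their part in this difference was not tested.

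All 23 genes of the DNA damage checkpoint and repair fell in QKO villi, with a median gradient of -1.12 beside -0.68 in TKO, -0.36 in Rb and -1.90 in WT. Rad54l, a motor protein of homologous recombination, read 6.55, 6.84 and 6.33 in QKO villi and 8.25, 8.63 and 8.64 in QKO crypts. Its gradient of -1.93 ± 0.17 stood beside -1.97 in WT and -0.80 in TKO, and it was the 1 member of the list whose QKO gradient differed from that of TKO (-1.13; background 0.0824% lower), a call lost without the pairing. Against Rb, 13 members had a lower QKO gradient, and against WT, 6 had a higher one, among them Parp1 (1.38) and Rad51ap1 (1.25). Targets of p53 had no common direction: 4 of 17 rose (23.5%) and 5 fell (29.4%), beside 15.4% and 21.8% of all genes. Pmaip1, a promoter of cell death, rose by 1.71 ± 0.31 beside 1.53 in WT. Zmat3, another target, read 8.21, 7.30 and 7.13 in QKO villi and 8.97, 8.15 and 7.70 in QKO crypts and fell by 0.73, whereas it rose by 0.53 in WT villi, and that difference passed the test (-1.25 ± 0.24) and was lost without the pairing.

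All 41 ribosome biogenesis genes fell in QKO villi, with a median of -1.19 beside -0.78 in TKO, -0.90 in Rb and -1.58 in WT, or 75.2% of the WT median. Of the 41, 6 (14.6%) had a QKO gradient above that of WT and 0 below (background 4.43% and 4.95%). Ncl, the nucleolar protein nucleolin, had the largest difference, at 1.26 (lost without the first QKO pair, at 1.08). Wdr12, which matures the large ribosomal subunit, read 7.51, 7.08 and 6.49 in QKO villi and 8.73, 9.01 and 8.71 in QKO crypts, a gradient of -1.79 ± 0.22 that stood beside -1.84 in WT. Rrs1, a ribosome assembly factor, was the 1 member that differed from Rb (-1.26; lost without the third QKO pair, at -1.01).

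Of the 25 stem cell and crypt base genes, 19 fell and 1, Msi1, rose, with a median of -1.05 beside -1.38 in WT (76.6% of it). None passed the test of a difference between QKO and WT. Slc12a2, an ion transporter of the crypt, read 10.50, 10.16 and 9.28 in QKO villi and 12.05, 12.04 and 11.92 in QKO crypts (-2.02 ± 0.31, against -2.08 in WT). Smoc2, a stem cell marker, read 7.42, 7.20 and 6.64 in QKO villi and 9.02, 9.27 and 8.98 in QKO crypts (-2.0 ± 0.29), and Olfm4, another, fell by 1.05. Lgr5, the receptor that defines cycling stem cells, read 4.57, 4.79 and 5.12 in QKO villi and 5.65, 6.00 and 5.43 in QKO crypts, near the low end of the scale. All its villus arrays were below all crypt arrays, and the gradient of -0.87 ± 0.34 was called with an adjusted p that rounds to 0.05, at the edge of the threshold.

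Paneth cells are the antimicrobial cells of the crypt base. Of 10 Paneth genes, 7 fell in QKO villi and 0 rose, with a median of -0.90 beside -0.86 in TKO, -1.37 in Rb and -1.96 in WT. The QKO median was 46.0% of the WT median and that of Rb 69.7%. Mmp7, which activates defensins, and Itln1, a lectin, had gradients of -1.63 and -1.59. Lyz1, lysozyme, fell by 0.65 from a very high level, 14.33, 13.66 and 13.67 in QKO villi and 14.60, 14.57 and 14.43 in QKO crypts, a call that was lost without the second or the third pair (-0.52 and -0.59). The Paneth mean in QKO crypts, 9.70, 9.99 and 9.51, was below the 11.39 to 11.89 of WT crypts. In such bulk samples fewer cells of a type and less RNA per cell cannot be told apart. Nupr1, a stress-response gene, read 8.15, 7.13 and 8.33 in QKO villi and 8.12, 7.63 and 7.35 in QKO crypts, with overlap, and had no called gradient in QKO (0.17) where it fell by 3.16 in WT.

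The absorptive programme rose towards the villus in QKO, more fully for some nutrients than for others. In the 3 QKO pairs the medians were 68.9%, 67.8% and 87.8% of the WT median for fat genes. They were 44.2%, 58.7% and 95.2% for peptide genes and 30.0%, 34.2% and 50.8% for sugar genes. Sugar genes were thus lowest of these in each pair, while the order of fat and peptide genes depended on the pair. Of 22 genes of fat absorption, 17 rose and 0 fell, with a median of 0.70 beside 0.90 in WT. Apob, the protein of chylomicrons, read 13.46, 13.95 and 13.92 in QKO villi and 12.55, 12.50 and 12.15 in QKO crypts (1.38 ± 0.24, against 1.28 in WT). Mogat2, an enzyme that rebuilds triglycerides, was the 1 member whose QKO gradient was below that of WT (-0.95; lost without the second QKO pair, at -0.80). Apoa1, Fabp1, Fabp2, Mogat2 and Plin2 were not called, with gradients of 0.08 to 0.25. Of 14 genes for peptide digestion and amino acid uptake, 10 rose and 0 fell, with a median of 0.67 beside 1.04 in WT. Tmprss15, the enteropeptidase that starts protein digestion, read 8.30, 9.65 and 10.31 in QKO villi and 5.68, 5.87 and 5.93 in QKO crypts, and rose by 3.59 ± 0.41 beside 3.82 in WT. Slc15a1, the peptide transporter, rose by 1.87 and Slc6a19, a neutral amino acid transporter, by 1.64.

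Some sugar genes had a flatter gradient in QKO than in WT. Of 8 genes, 4 rose in QKO and 8 in WT, with medians of 0.44 in QKO, 0.78 in TKO, 0.83 in Rb and 1.20 in WT. Slc2a2, the glucose transporter Glut2, read 13.19, 13.30 and 13.51 in QKO villi and 12.78, 12.98 and 13.02 in QKO crypts. The arrays did not overlap, yet the gradient of 0.40 ± 0.31 was not called (adjusted p = 0.35), and it was below the WT gradient of 2.12 by 1.72 ± 0.44 (adjusted p = 0.021). That call was lost without the first or the second QKO pair. The Slc2a2 crypt arrays of WT read 11.35, 10.01 and 10.96, all below the QKO crypt arrays, while WT villi read 12.83, 13.01 and 12.85. Khk, the first enzyme of fructose use, had a gradient of -0.05 in QKO and 1.01 in WT, and Fbp1, an enzyme of glucose production, rose by 0.48 in QKO, a call lost without the second or the third pair (0.53 and 0.34), and by 1.36 in WT. Those 3 genes were the members that differed between QKO and WT. The mean of the list was 12.68, 12.91 and 13.01 in QKO villi and 12.23, 12.35 and 12.23 in QKO crypts, against 12.71, 12.81 and 12.76 in WT villi and 11.58, 11.16 and 11.59 in WT crypts.

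Fatty acid oxidation and ketogenesis showed little gradient in QKO. Of 13 genes, 2 rose (15.4%, the same share as of all genes) and 0 fell. Their median was -0.04 beside 0.57 in WT, where 7 rose and 2 fell. The median was 0.10 in TKO and 0.02 in Rb. Pdk4, which diverts pyruvate from oxidation, rose by 1.97 in QKO (1.73 and not called without the third pair) and by 4.28 in WT, a difference that just missed the threshold (-2.32 ± 0.72, adjusted p = 0.051). Slc25a20, the mitochondrial carnitine carrier, had a gradient of -0.06 in QKO and 0.98 in WT, and Slc25a20, Acaa2, Ehhadh and Etfdh differed between QKO and WT.

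The brush border genes had the gradient most like WT among the absorptive lists, with a median of 0.74 in QKO and 0.77 in WT. By pair the QKO median was 79.2%, 84.4% and 136% of the WT median. This rank did not hold in the third pair, where the peptide genes stood at 95.2%. Krt20, a keratin of mature cells, read 12.99, 13.92 and 13.99 in QKO villi and 11.82, 12.33 and 12.61 in QKO crypts (1.38 ± 0.16). Cdhr2, a cadherin that joins microvilli, read 12.75, 13.43 and 13.70 in QKO villi and 11.88, 12.20 and 12.14 in QKO crypts (1.22 ± 0.18, against 1.16 in WT). Pls1, an actin bundler, was the 1 member whose QKO gradient differed from WT (0.38 against 1.11, a difference of -0.73), a call that was lost without any 1 of the QKO pairs (-0.76 to -0.72).

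Of 14 enterocyte transcription factors 6 rose and 2 fell. Klf4, a factor of differentiated epithelium, read 11.25, 12.03 and 12.44 in QKO villi and 9.37, 9.37 and 9.31 in QKO crypts. The compartments stood far apart, by 2.56 ± 0.22, and the gradient exceeded the 1.19 of WT by 1.37. Klf5, a factor of dividing crypt cells, rose by 0.53 in QKO villi and fell by 1.24 in WT villi, a difference of 1.78. The Klf5 rise in QKO was not called without the first or the second pair (0.45 and 0.44). Prdm1, a factor of the maturing intestine, rose by 2.24 in QKO and 1.89 in WT. Cdx1, an intestinal homeobox factor, fell by 1.10 in QKO and 1.16 in WT, and Cdx2, its relative, fell by 0.52 in QKO and had a gradient of 0.21 in WT, which was not called. Hnf4a, a factor of enterocyte identity, had a gradient of 0.21 and was not called.

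**Figure D2:**
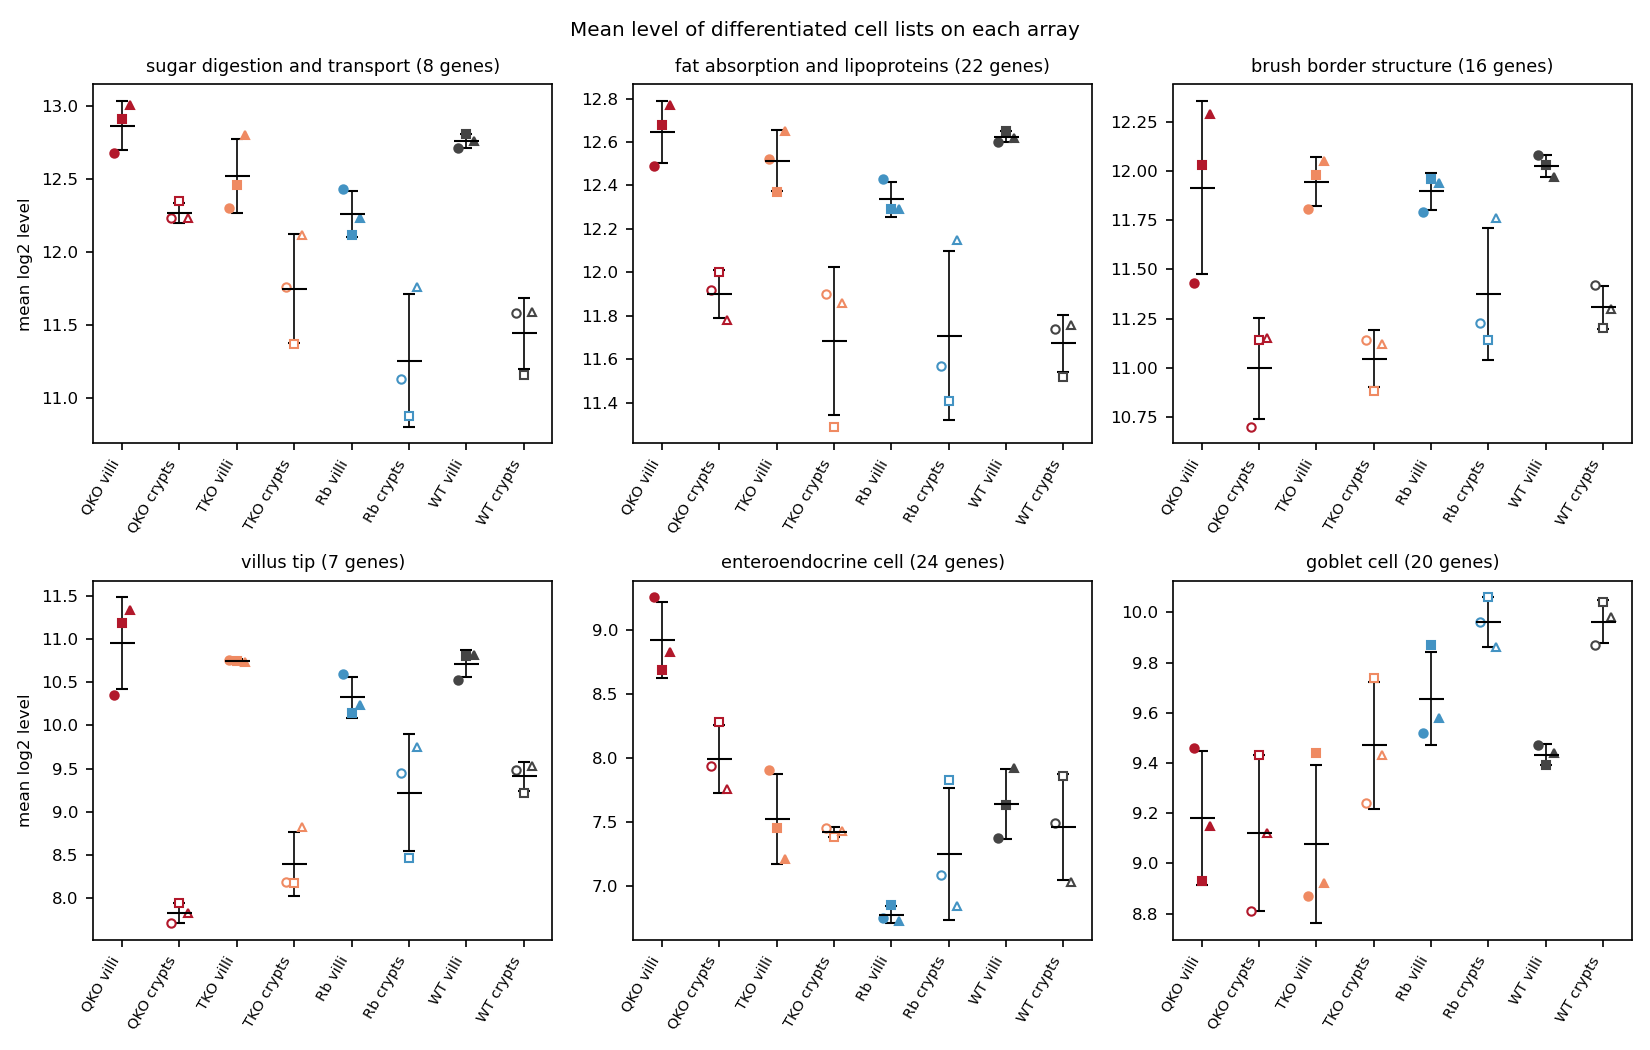
Mean log2 level of 6 villus and secretory gene lists on each of the 24 arrays, with groups and symbols as for the crypt lists (filled villi, open crypts, bars mean ± SD of 3 arrays). The villus tip mean is 10.35 to 11.33 in QKO villi and 7.71 to 7.94 in QKO crypts, and the enteroendocrine mean is 8.69 to 9.26 in QKO villi and 7.76 to 8.28 in QKO crypts.

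Of 7 measured genes known from the villus tip, 3 had a steeper gradient in QKO than in WT, and 2 did when villi and crypts were not paired or the third QKO pair was left out. All 7 rose in QKO villi, with a median of 2.38 beside 1.57 in TKO, 1.20 in Rb and 1.53 in WT. Without the 2 discordant arrays the Rb median was 0.87 and the WT median 1.68, and 4 genes had a steeper gradient in QKO than in WT. Ada, an enzyme that breaks down adenosine, read 12.94, 14.51 and 14.22 in QKO villi and 6.98, 7.61 and 7.44 in QKO crypts. Nt5e, the surface enzyme CD73 that makes adenosine, read 10.11, 11.62 and 10.67 in QKO villi and 4.32, 4.46 and 4.26 in QKO crypts. The villus and crypt arrays of both genes stood far apart, with gradients of 6.54 ± 0.55 for Ada and 6.45 ± 0.45 for Nt5e. In WT the gradients were 1.72 and 1.91, and the QKO excess was 4.83 for Ada and 4.54 for Nt5e.

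The Ada levels of QKO and WT overlapped in villi and did not in crypts. WT villi read 13.35, 13.92 and 14 for Ada, within the QKO villus range, while WT crypts read 12.16, 11.39 and 12.57, above every QKO crypt array. TKO crypts lay between, at 7.70, 8.80 and 10.64, and the TKO gradient of Ada was 4.78. Fos, an immediate early gene, rose by 2.38 ± 0.20 in QKO and by 1.24 in WT and was the third tip gene that differed from WT (1.13). Apobec1, which edits the Apob transcript, had a gradient of 1.12 in QKO and 1.53 in WT. Enpp3, an ectoenzyme, read 13.84, 13.96 and 14 in QKO villi and 11.02, 10.17 and 9.56 in QKO crypts and rose by 3.68 ± 0.52. None of the 7 differed between QKO and TKO by this test, and the median difference was 0.80.

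The largest gradient of all named genes was that of Clca4a, a member of the family of calcium-activated chloride channel regulators. It read 11.76, 13.73 and 13.61 in QKO villi and 5.71, 5.29 and 7.30 in QKO crypts, a gradient of 6.94 ± 0.39 (adjusted p = 1.8e-08). Its gradient was 3.63 in TKO, 0.97 in Rb and 1.17 in WT, and the QKO gradient exceeded each of these (by 3.31, 5.97 and 5.77), although the difference from TKO was lost when villi and crypts were not paired. The Clca4a crypt arrays read 8.93, 9.49 and 10.29 in TKO, 12.29, 11.27 and 12.88 in Rb and 12.54, 11.93 and 12.33 in WT, so the QKO crypts were the lowest. Its villus arrays all lay between 11.76 and 13.73 in the 4 genotypes.

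Ly6m, a surface protein of the Ly6 family, and Pmp22, a membrane protein first known from myelin, followed the same order. Ly6m read 9.12, 11.98 and 12.42 in QKO villi and 4.85, 5.84 and 5.73 in QKO crypts (5.70 ± 0.41, against 1.58 in WT). Pmp22 read 9.09, 12.79 and 12.86 in QKO villi and 5.42, 6.52 and 7.60 in QKO crypts (5.07 ± 0.35, against 1.45 in WT). On both genes the first QKO villus array was more than 2 units below the other QKO villus arrays. Tubb2a, a tubulin, rose by 4.16, and Gprc5a, an orphan receptor induced by retinoic acid, by 4.15.

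The largest falls were smaller than the largest rises, and the steepest were pancreatic enzyme genes, given further on. Gsdmc2, a gasdermin of the pore-forming family, read 4.18, 4.33 and 5.95 in QKO villi and 6.34, 7.64 and 7.82 in QKO crypts (-2.45 ± 0.40, against -3.62 in WT). Esco2, which sets cohesion during replication, read 5.88, 5.96 and 5.65 in QKO villi and 7.88, 8.02 and 7.88 in QKO crypts (-2.09 ± 0.27, against -0.19 in Rb and -3.10 in WT). Mettl1, a tRNA methyltransferase, fell by 2.12 and Macc1, a regulator of Met signalling, fell by 2.13. Macc1 had gradients of 0.06 in Rb and -0.56 in WT, and its gradient difference was -2.19 for QKO minus Rb and -1.57 for QKO minus WT.

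**Figure D3:**
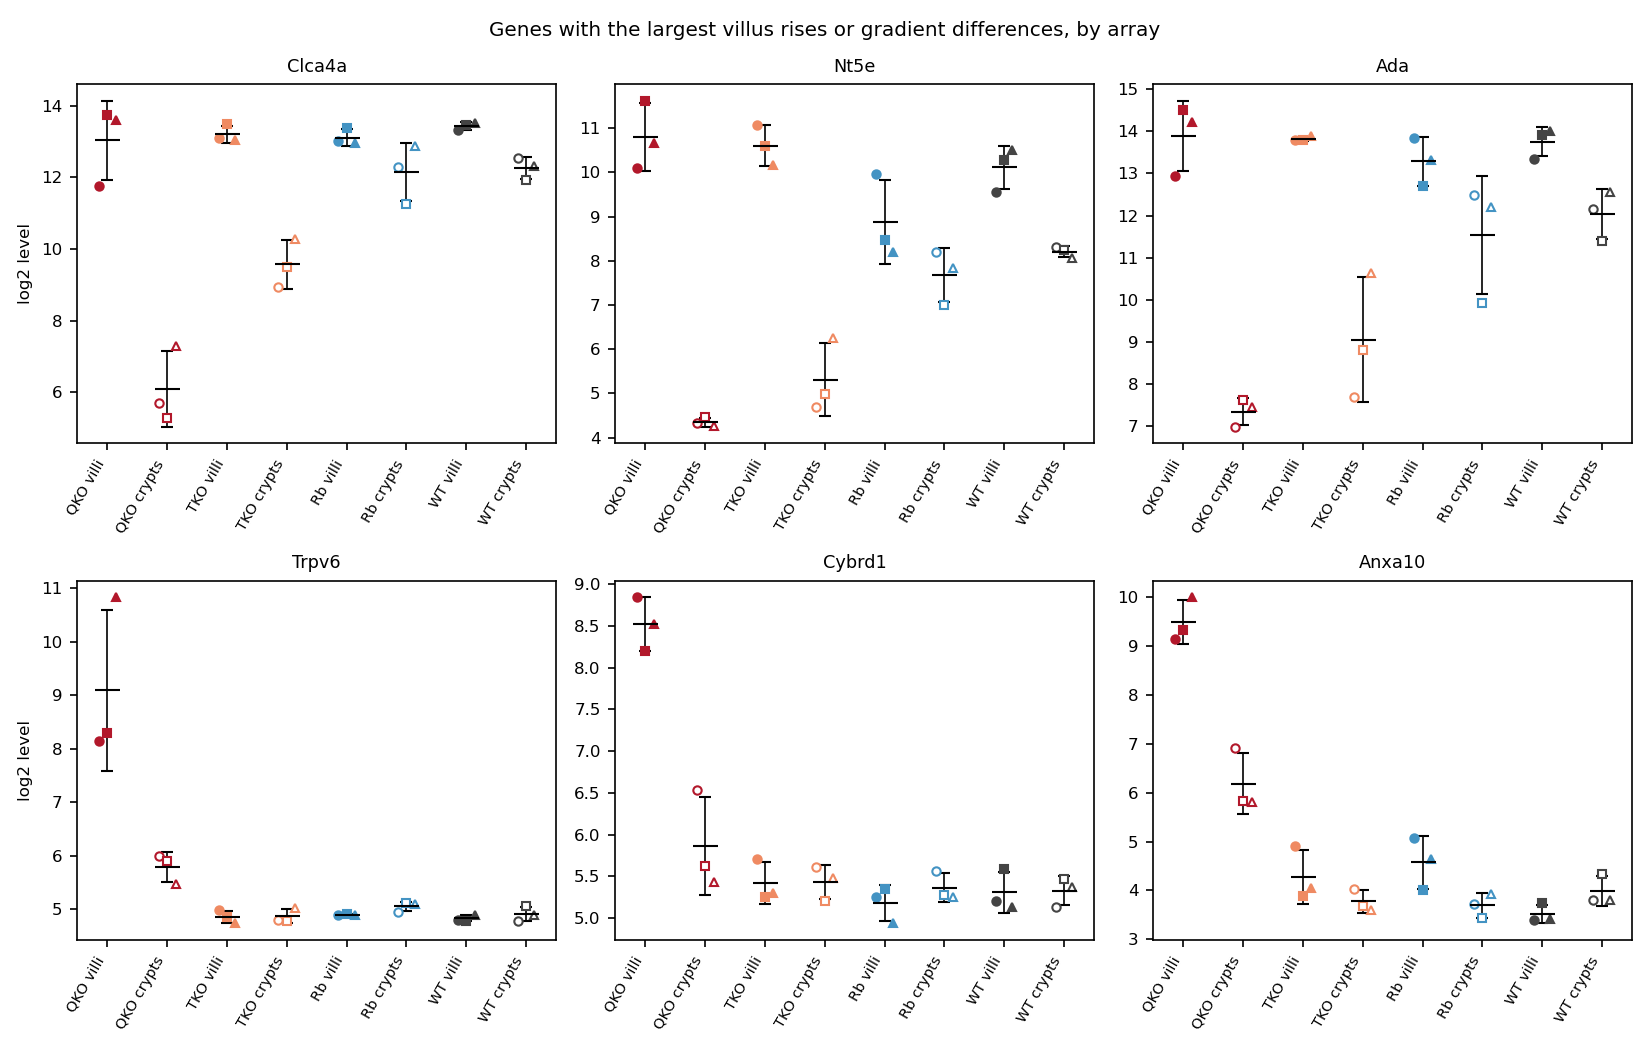
Log2 level of Clca4a, Nt5e, Ada, Trpv6, Cybrd1 and Anxa10 on each of the 24 arrays, with groups and symbols as for the crypt lists (bars are mean ± SD of 3 arrays, axes do not start at 0). Clca4a, Nt5e and Ada are lowest in QKO crypts, and Cybrd1 reads 8.20 to 8.84 in QKO villi where no array of another genotype exceeds 5.71.

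Of 8 genes for iron and calcium absorption, 5 rose in QKO villi and 0 fell, and Trpv6 and Cybrd1 had a gradient in QKO that no other genotype showed. Trpv6, the calcium channel of the enterocyte surface, read 8.15, 8.30 and 10.83 in QKO villi and 5.99, 5.91 and 5.47 in QKO crypts, a gradient of 3.30 ± 0.36. Its gradients were -0.01 in TKO, -0.16 in Rb and -0.08 in WT, and its level was 4.75 to 5.11 on all arrays of those genotypes. Cybrd1, the reductase that prepares dietary iron for uptake, read 8.84, 8.20 and 8.52 in QKO villi and 6.53, 5.62 and 5.44 in QKO crypts, a gradient of 2.65 ± 0.17 (adjusted p = 4.4e-08). Its gradient differed from that of TKO by 2.67 ± 0.23 (adjusted p = 1.1e-05), and the TKO, Rb and WT gradients lay between -0.18 and -0.01. S100g, the calcium carrier of the cytosol, rose by 1.27 (0.82 and not called without the third pair), and the iron exporter Slc40a1 had a gradient of 0.98, which was not called.

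Anxa10, an annexin best known from the stomach, read 9.13, 9.33 and 9.99 in QKO villi and 6.91, 5.83 and 5.81 in QKO crypts, a gradient of 3.30 ± 0.29. It was 3.40 to 5.08 on all arrays of the other genotypes, and its QKO gradient differed from that of TKO by 2.80. Iron, calcium and annexin genes of this kind differ along the length of the intestine, and 6 ileal genes were therefore examined. Their mean was 7.37, 7.38 and 7.48 in QKO villi and 6.86, 7.26 and 7.14 in QKO crypts, against 8.80, 8.06 and 8.54 in WT villi and 7.94, 8.11 and 8.21 in WT crypts. Of the 6 genes 1 was called in QKO, Cubn, the receptor for vitamin B12 complexes, which rose by 1.75. The part of the sampled intestinal segment in the differences between genotypes was not tested.

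Aqp8, a water channel, and Ces1g, a lipid esterase, headed the genes whose QKO gradient was below that of WT, together with acinar genes and Rnase1. Aqp8 read 7.83, 5.64 and 4.52 in QKO villi and 6.98, 5.75 and 4.29 in QKO crypts, with a gradient of 0.32 beside 3.03 in WT. Its level differed more between the QKO pairs than between the compartments. Ces1g had a gradient of 0.26 in QKO and 3.16 in WT, a difference that was not called without the first or the second QKO pair (-2.50 and -2.83). Rnase1, a secreted ribonuclease, read 7.32, 6.84 and 6.34 in QKO villi and 8.83, 8.78 and 9.02 in QKO crypts and fell by 2.04, whereas it rose by 1.21 in WT villi. The 7 genes of villus base antimicrobial defence had 1 call in QKO, a fall of the chemokine gene Ccl25 by 0.52.

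Enteroendocrine genes rose in QKO villi more than in Rb villi. Enteroendocrine cells are the hormone-secreting cells of the epithelium. Of 24 genes, 15 rose and 3 fell in QKO, against 1 and 7 in Rb and 7 and 4 in WT, and the medians were 1.32 in QKO, 0.19 in TKO, -0.44 in Rb and 0.46 in WT. Without the 2 discordant arrays, 1 rose and 2 fell in Rb (median -0.12), and 6 rose and 5 fell in WT (median 0.18). The list mean was 9.26, 8.69 and 8.83 in QKO villi and 7.94, 8.28 and 7.76 in QKO crypts, and no other genotype had a villus array above 7.92.

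Sct, the hormone secretin, read 11.97, 11.29 and 11.93 in QKO villi and 8.91, 9.54 and 9.08 in QKO crypts, a gradient of 2.55 ± 0.21 (adjusted p = 4.6e-07) beside 1.05 in WT. Pyy, a satiety hormone, read 8.85, 9.79 and 10.19 in QKO villi and 6.57, 6.86 and 6.68 in QKO crypts, a gradient of 2.90 ± 0.32 beside 0.52 in WT, which was not called. All villus arrays were above all crypt arrays for both, and both gradients also exceeded those of TKO, by 1.75 for Sct and 2.48 for Pyy. Neither difference from TKO passed the test without the third QKO pair. Cck, the hormone cholecystokinin, rose by 1.89, Nts, neurotensin, by 2.89, and Tph1, which starts serotonin synthesis, by 2.19. Neurog3, the factor that commits progenitors to this lineage, read 6.03, 5.89 and 5.59 in QKO villi and 7.37, 8.02 and 7.46 in QKO crypts and fell by 1.77, beside 1.53 in WT. Gcg, the glucagon gene, had a gradient of -0.86 and was not called. Of the 24 genes 16 had a QKO gradient above that of Rb, 4 above that of WT and 0 below either. Without the 2 discordant arrays, 14 were above Rb and 1 below, and 9 were above WT.

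Goblet cells secrete mucus. Of 20 goblet genes, 8 rose and 3 fell in QKO villi, and 0 rose and 10 fell in WT villi. Muc2, the main mucin, read 12.82, 12.24 and 12.38 in QKO villi and 11.47, 12.21 and 11.82 in QKO crypts and rose by 0.65, with a QKO gradient above that of WT by 0.88, a call that was lost when villi and crypts were not paired and without the first or the third QKO pair (0.53 and 0.93). Clca1, a mucus protein, read 13.42, 13.28 and 13.74 in QKO villi and 10.59, 12.68 and 12.69 in QKO crypts and rose by 1.49, or by 0.83 without the first pair, and Spink4, a protease inhibitor, fell by 1.40. The pairs differed for this list: its mean was 9.46, 8.93 and 9.15 in QKO villi and 8.81, 9.43 and 9.12 in QKO crypts, higher in villi in the first pair, lower in the second and nearly equal in the third. Of 16 tuft cell genes, 3 rose (18.8%, beside 15.4% of all genes) and 0 fell. Alox5ap, which helps make leukotrienes and is also expressed in leukocytes, rose by 1.52, or by 0.95 without the third pair. Of 8 response genes of the aryl hydrocarbon receptor, the target of the injected compound, 2 rose. Cyp1a1, its classical target, read 9.19, 10.79 and 10.78 in QKO villi and 7.74, 8.55 and 7.78 in QKO crypts, without overlap, and the gradient of 2.23 ± 0.98 was not called.

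Genes of T cells had the largest median rise among the lists examined. Intraepithelial T cells reside among the enterocytes of the villus. All 17 measured genes rose in QKO villi, with a median of 2.46 beside 1.39 in TKO (12 rose), 0.94 in Rb (5 rose) and 0.72 in WT (4 rose). The list mean was 8.68, 8.52 and 9.29 in QKO villi and 6.15, 6.16 and 6.35 in QKO crypts. WT villi read 7.85, 8.02 and 7.91 and WT crypts 8.03, 6.95 and 6.92, so that QKO villi stood above and QKO crypts below every WT array.

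Cd3g, a chain of the T cell receptor complex, read 9.95, 9.49 and 10.30 in QKO villi and 5.59, 4.81 and 6.10 in QKO crypts, a gradient of 4.41 ± 0.52 (adjusted p = 6.2e-06). Gzma, a protease of cytotoxic granules, read 12.81, 12.79 and 13.70 in QKO villi and 8.70, 8.91 and 9.71 in QKO crypts (3.99 ± 0.54). Neither gene's arrays overlapped between the compartments, which for Cd3g was a condition of being named among the largest rises. Itgae, the integrin that holds T cells in epithelium, rose by 3.05, Cd8a, a co-receptor, by 2.46 and Ccl5, a chemokine, by 4.03. Of the 17 genes 12 had a QKO gradient above that of WT and 10 above that of Rb, and 1, the chemokine gene Xcl1, above that of TKO (2.08), a call that was lost without the pairing or without the third QKO pair. Leaving out the third QKO pair gave 6 above WT, and leaving out the 2 discordant arrays gave 13 above WT and 15 above Rb. With those 2 arrays left out, 0 of the 17 rose in Rb villi.

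**Figure D4:**
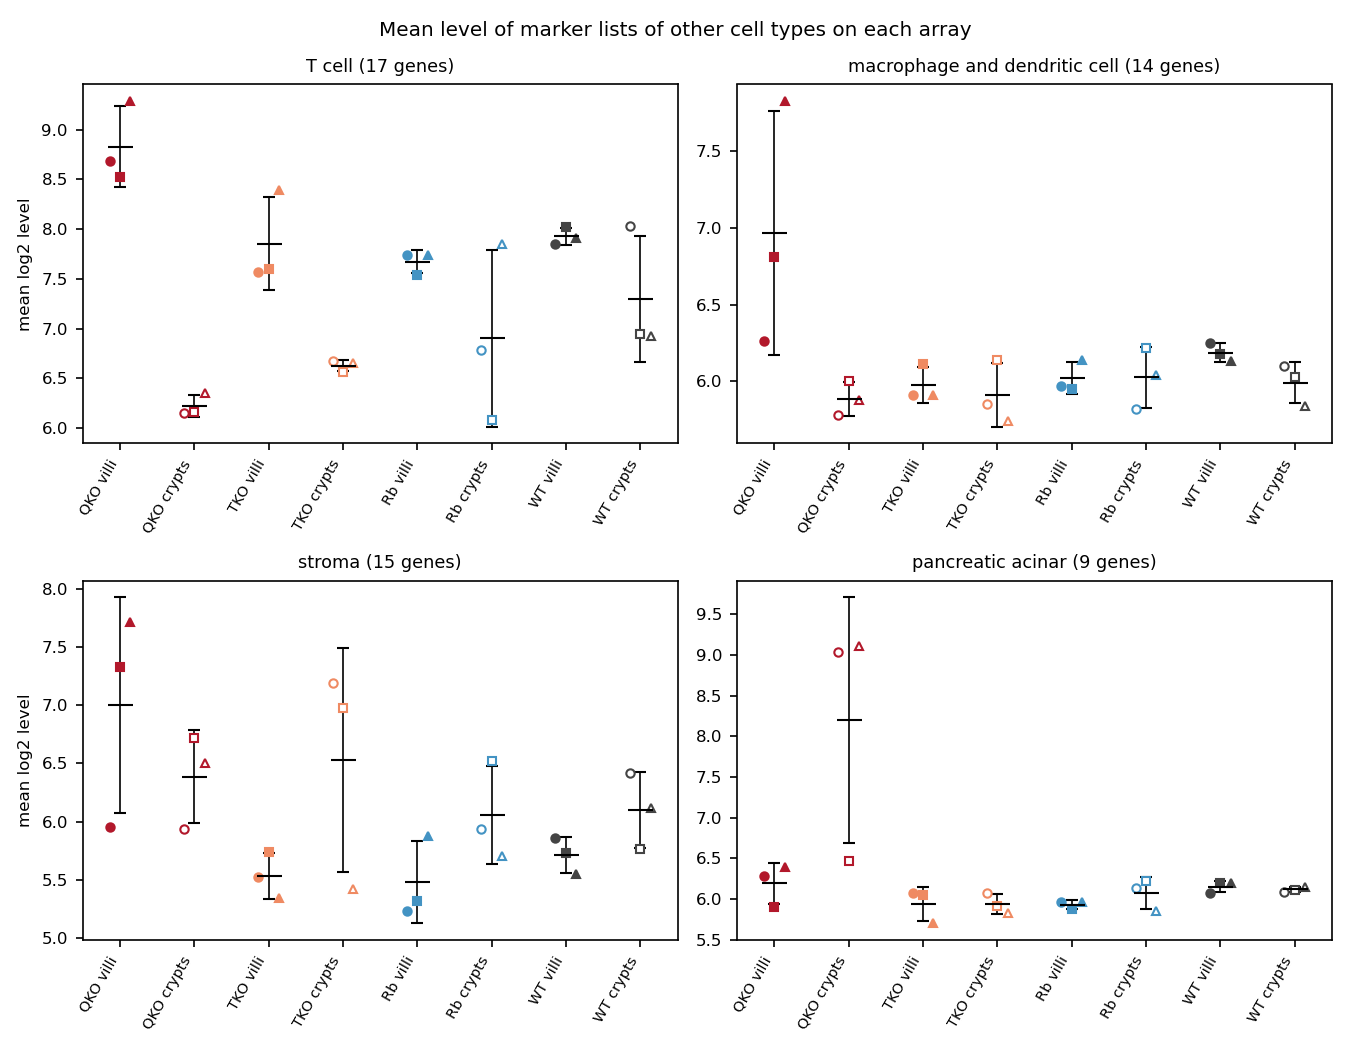
Mean log2 level of marker lists of T cells, macrophages and dendritic cells, stroma and pancreatic acinar cells on each of the 24 arrays, with groups and symbols as for the crypt lists (bars mean ± SD of 3 arrays). The T cell mean is 8.52 to 9.29 in QKO villi and 6.15 to 6.35 in QKO crypts, and the acinar mean is 9.03 and 9.11 on 2 QKO crypt arrays and 6.46 on the other.

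Markers of other cell types also moved with the compartment in QKO. Of 14 macrophage and dendritic cell genes, 8 rose in QKO villi, and the list mean was 6.26, 6.81 and 7.83 in QKO villi and 5.78, 6.00 and 5.88 in QKO crypts. Tyrobp and Fcer1g, signalling adaptors that cytotoxic lymphocytes also express, rose the most (3.53 and 3.23). C1qb, a macrophage complement gene, read 4.01, 5.67 and 7.24 in QKO villi and 4.56, 4.51 and 4.37 in QKO crypts, with the first villus array below all crypt arrays. Of 15 stromal genes 4 rose, and the mean was 5.95, 7.33 and 7.72 in QKO villi and 5.94, 6.72 and 6.50 in QKO crypts. Vim, an intermediate filament of stromal and immune cells, rose by 1.71 in QKO villi and fell by 0.93 in WT villi, and Fn1, a matrix protein, read 6.56, 8.73 and 11 in QKO villi and 6.55, 7.20 and 7.63 in QKO crypts. QKO villus arrays 2 and 3 thus carried more macrophage and stromal signal than array 1, and the part of this in the villus rises above was not tested.

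The remaining marker lists are given beside the share of all genes, of which 15.4% rose in QKO villi and 21.8% fell. None of the 6 MHC class II genes was called, with means of 8.30, 7.96 and 10.52 in QKO villi and 7.54, 7.00 and 10.18 in QKO crypts, so the third pair was high in both compartments and the list mean was higher in villi in each pair. H2-Aa, a chain of the class II molecule, was higher in QKO villi by 1.85, 2.14 and 1.04 in the pairs (1.68 in the fit, adjusted p = 0.25). Of 9 B and plasma cell genes 3 rose (33.3%). Jchain, the joining chain of secreted antibodies, rose the most (1.51), but was not called without the first or the third pair (1.41 and 1.25). Of 8 smooth muscle genes 2 rose, and of 13 endothelial genes 4 rose and 1 fell. None of the 6 genes of enteric neurons and glia was called.

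Pancreatic acinar enzymes were high in 2 of the 3 QKO crypt arrays. Cela2a, a pancreatic elastase, read 4.35, 3.73 and 4.66 in QKO villi and 9.51, 4.49 and 9.33 in QKO crypts, and Cpb1, a carboxypeptidase, read 4.40, 4.06 and 5.42 in QKO villi and 8.79, 5.35 and 9.18 in QKO crypts. Crypt arrays 1 and 3 were high for both, and crypt array 2 lay within the range of the villus arrays. Of 9 acinar genes 8 fell in QKO villi, with a median of -2.11 beside 0.04 in TKO, 0.07 in Rb and 0.21 in WT. The pairs gave medians of -2.77, -0.67 and -2.76. Against TKO 6 of the 9 differed, and 0 did when villi and crypts were not paired or when the third pair was left out.

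Over all genes, the QKO gradient correlated across the 18193 genes with that of TKO at r = 0.83 (Spearman's rho 0.75), with that of Rb at r = 0.59 (0.51) and with that of WT at r = 0.71 (0.68). The WT gradient correlated with that of Rb at r = 0.73 (0.67) and with that of TKO at r = 0.79 (0.74). By this measure over all genes, QKO was no nearer to WT than Rb was. Of the Rb calls, 79.6% were also called in WT. Genes are not independent replicates, and these values are descriptions of arrays that none of the compared genotypes share. Of the genes called in QKO, 4400 were also called in WT (64.9% of the QKO calls, 59.6% of the WT calls), 1513 higher in both, 2777 lower in both and 110 in opposite directions.

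**Figure D5:**
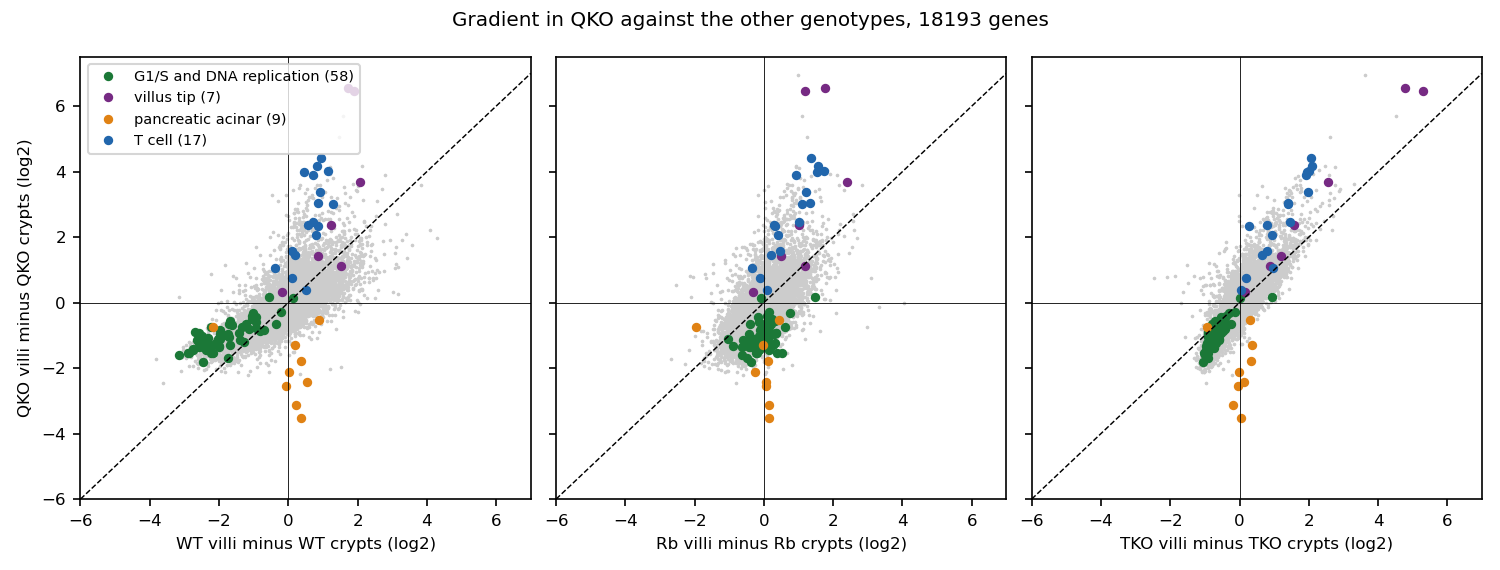
Gradient (villus minus crypt, log2) in QKO plotted against the gradient in WT, Rb and TKO for 18193 genes, with the genes of 4 lists coloured (G1/S, villus tip, pancreatic acinar and T cell) and a dashed line where the gradients are equal. The G1/S genes, with a QKO median of -1.07, have medians of -0.75 on the TKO axis, -0.09 on the Rb axis and -1.98 on the WT axis.

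The genes called in WT were followed into QKO. The 3623 genes called lower in WT villi had median gradients of -0.69 in QKO, -0.47 in TKO, -0.42 in Rb and -0.84 in WT, and 2777 of them (76.6%) fell in QKO. The 3762 genes called higher in WT villi had medians of 0.28 in QKO, 0.27 in TKO, 0.28 in Rb and 0.59 in WT, and 1513 of them (40.2%) rose in QKO. In WT, centring the arrays on their medians raised the share of calls that were higher in villi to 70.2%, against 50.9% as deposited, so the size of the villus-high set depends on the scaling. The shares that fell or rose in QKO rest on the QKO calls, of which 27.4% to 53.3% were higher in villi with 1 pair left out.

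The genes whose gradient Rb loss changed were then followed into QKO. Rb and WT gradients differed in 1345 genes (7.39%; 5.3% above and 2.09% below). In 964 of them the Rb gradient was above that of WT, and these had medians of -0.92 in QKO, -0.62 in TKO, -0.21 in Rb and -1.34 in WT. Of these 964 genes 843 (87.4%) fell in QKO villi, against 21.8% of all genes and 76.6% of the genes called lower in WT villi. In WT, 95.2% of the 964 were called lower. The 964 genes and all genes called lower in WT villi differed in steepness, with WT medians of -1.34 and -0.84. Their QKO medians were -0.92 and -0.69. The shares of 87.4% and 76.6% thus compare genes of unlike WT gradient and do not show a fuller return in the 964. The other 381 genes, whose Rb gradient was below that of WT, had medians of 0.22 in QKO, 0.23 in TKO, -0.03 in Rb and 0.71 in WT. Of these, 146 (38.3%) rose in QKO villi, against 15.4% of all genes. In WT, 89.0% of the 381 were called higher in villi. The share that rose in QKO among all genes called higher in WT villi was 40.2%, so 38.3% is no higher than that share. The sets were chosen by the difference between the Rb and WT gradients, which fixes the order of those 2 medians. The QKO and TKO gradients took no part in that difference. Their arrays did enter the fit's estimate of the spread, on which the calls rest, and the choice of a probe set for each gene.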

How the data were processed

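RNA of 24 samples was measured on arrays of 45101 probe sets. The authors deposited 1 table of log2 values, which span 2.29 to 14.9. The authors' summarisation and normalization of the scans were not given in the sources used here. Each gene was represented by its brightest probe set on average, among 34945 probe sets with 1 gene symbol (932 had several, 9160 none and 64 were controls), giving 18193 genes. Symbols were updated by Entrez ID for 34754 probe sets and kept for 191.

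Villus-minus-crypt differences and differences between them entered 1 limma fit (limma 3.58.1, R 4.3.3) on all 24 arrays with an intensity trend and Benjamini-Hochberg adjustment over all genes. Errors given as ± are SEs of that fit. Villi and crypts with the same number were paired in QKO and TKO. The pairing comes from the values: same-numbered arrays deviated together in every pair (r = 0.55, 0.25 and 0.37 in QKO, 0.61, 0.55 and 0.64 in TKO), which did not hold in Rb (0.06, -0.01 and -0.24) or WT (0.01, 0.13 and 0). Tables were made with pandas 2.3.3 in Python 3.11.15 and figures with matplotlib 3.10.9. The fit was tested on simulated data.

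Genes were named as the largest called rises and falls of each comparison (10 each way in QKO, 8 for QKO minus WT, 5 for QKO minus Rb and for QKO minus TKO) and by the smallest p within each list, with all members of short lists. The largest changes were taken among genes whose higher group mean exceeded the median of all values and, for QKO alone, whose villus and crypt arrays did not overlap, leaving out predicted genes and Riken clones. The members and lists were chosen with earlier results of these data known. Alternatives were array weights, only the groups compared, omission of arrays or pairs, centring, quantile normalization, a filter on dim genes, no intensity trend, every probe set, the mean of probe sets, and other pairings. The number of arrays limits the precision.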

Additional observations from a re-analysis of the deposited data

Results flagged for a closer look

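The gradients of the genotypes were compared gene by gene, and the following differences in the villus-minus-crypt value passed limma's test at an adjusted p under 0.05. QKO differed from WT in 1706 genes, from Rb in 2002 and from TKO in 65, and the QKO arrays are shared by these comparisons.

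Against WT, the QKO gradient was higher by 5.77 for Clca4a, 4.83 for Ada, 4.54 for Nt5e, 4.12 for Ly6m, 3.77 for Anxa10, 3.62 for Pmp22, 3.54 for Gzma and 3.47 for Cd3g. The differences on the other side were -3.90 for Cela2a, -3.36 for Cpb1, -3.25 for Rnase1, -2.94 for Ctrb1, -2.90 for Ces1g, -2.71 for Aqp8, -2.52 for Ctrl and -2.48 for Cpa1. Cela2a, Cpb1, Ctrb1, Ctrl and Cpa1 are pancreatic enzyme genes.

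Against Rb, the QKO gradient was higher by 5.97 for Clca4a, 5.25 for Nt5e, 4.80 for Ada, 4.58 for Ly6m and 3.82 for Pmp22. The differences on the other side were -3.70 for Uty, -3.68 for Cela2a, -3.29 for Cpb1, -2.74 for Dck and -2.61 for Cpa1. Uty is on the Y chromosome, and by Eif2s3y the Rb villi were of mixed sex (3.15 to 9.24) while the Rb crypts were female (3.11 to 3.29).

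Against TKO, the QKO gradient was higher by 3.31 for Trpv6, 3.31 for Clca4a, 2.93 for Serpina1c, 2.80 for Anxa10 and 2.67 for Cybrd1. The differences on the other side were -3.58 for Cela2a, -2.96 for Cpb1, -2.53 for Ctrb1, -2.52 for Cpa1 and -2.10 for Cel. Groups of 3 arrays were not tested for outlying samples.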

How the results depend on the processing

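The count of genes called between QKO villi and QKO crypts, 6777, stayed within 1.5 times under every alternative run (5297 to 7835, and 5405 to 6061 with an array or pair left out), as did the WT count of 7385 (6803 to 10344, and 6196 to 6900). The QKO minus WT count of 1706 became 2562 with arrays centred on their medians, 2648 with every probe set and 3448 with array weights, and was 1137 to 1622 with arrays left out (1137 without QKO pair 1). The QKO minus Rb count of 2002 became 3619 with array weights and 836 with only the groups compared, and was 1391 to 2004 with arrays left out. The QKO minus TKO count of 65 became 129 with centring, 120 with every probe set, 1043 with array weights and 109 with only the groups compared. With arrays left out it was 11 to 163: 11 without TKO villi 1 or TKO crypts 1, 17 without TKO villi 2 or TKO crypts 2, 18 without QKO pair 3 and 163 without QKO pair 2. Without the replicate block that pairs villi with crypts, QKO minus WT had 990 calls, QKO minus TKO 11 and QKO itself 6072, and with the block in all 4 genotypes QKO minus TKO had 31. The Rb count of 4022 became 6055 with array weights, 2264 without WT crypts 3 and Rb crypts 2, the discordant pair of arrays, and 2276 with only the groups compared, and was 2254 to 5022 with arrays left out (2254 without Rb crypts 2, 2583 without Rb villi 1). The TKO count of 3790 became 6469 with array weights and was 1145 to 2929 with arrays left out (1158 without TKO villi 2, 1150 without TKO villi 3, 1148 without TKO crypts 2, 1145 without TKO crypts 3). The Rb minus WT count of 1345 was 849 to 1402 with arrays left out (849 without Rb villi 3). Centring gave 30.6% of QKO minus WT calls higher, against 47.2% as deposited, 59.7% against 45.9% for Rb and 49.3% against 71.7% for Rb minus WT, leaving out QKO pair 2 or 3 gave 67.3% and 30.5% for QKO minus WT and 62.3% and 26.8% against 40.4% for QKO minus Rb, and quantile normalization gave 51.1% against 40.4% for QKO minus Rb and 54.3% for Rb minus WT. Centring moved the all-gene WT median to 0.24, against 0.08. C1qb in QKO was -0.06 under array weights. Of the called genes named, 117 of 165 kept their call under every alternative in QKO, 35 of 67 against WT, 37 of 57 against Rb and 3 of 17 against TKO. Where no sentence gives an alternative's construction as fewer arrays or another set of probe sets, the cause was not tested.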
